A study of Mus musculus with 9 samples.

Results

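The genes described here encode amino acid exchangers of the cell membrane and the partner proteins that carry them there. They are 8 Slc7 genes (Slc7a1, Slc7a2, Slc7a5, Slc7a6, Slc7a7, Slc7a8, Slc7a9 and Slc7a11) and both Slc3 genes (Slc3a1 and Slc3a2), 10 of the 19938 genes with a value. They were chosen by family and gene symbol, with earlier results of these data known, and for each of the 10 a single probe set carried that symbol alone. Livers came from male C57BL/6J mice with no genetic change. All mice ate the LF-NP diet for a run-in of 2 weeks and then either stayed on it or were switched to another diet for 1 or 12 weeks. Protein supplied 50% of energy in the high protein (HP) diets and 15% in the normal protein (NP) diets, and fat supplied 35% in the high fat (HF) and 10% in the low fat (LF) diets. Carbohydrate made up the rest, which was 15% in HF-HP, 40% in LF-HP, 50% in HF-NP and 75% in LF-NP, so an HP diet was also a diet with less carbohydrate. Each diet and week is represented by 1 RNA pool of 5 of the 10 mice of a group on 1 array, which gives 4 HP pools, 4 NP pools and 1 reference pool of mice killed when the run-in ended (week 0). The labels put the age of the mice at 12 weeks for the reference, 13 weeks after 1 week of diet and 22 weeks after 12 weeks of diet, and the last of these is lower than run-in and diet add up to. On the last day the mice ate a calibrated meal of 12.1 kJ, and livers were taken 2 hours after it was given. Pooling averages the mice, so p-values measure only how pools that differ in fat level or week scatter.

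Most Slc7 proteins are light chains that reach the cell surface only when linked to a heavy chain, which is either Slc3a2 (4F2hc, CD98) or Slc3a1 (rBAT). The light chain sets what is carried, and transport is an obligatory exchange of an amino acid inside the cell for another outside it. The cationic amino acid transporters Slc7a1 and Slc7a2 need no heavy chain and let arginine, lysine and ornithine enter the cell. Slc7a2 is the form known from hepatocytes, which clear these amino acids from portal blood and use arginine and ornithine in the urea cycle.

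The arrays were alike, with correlations between 0.988 and 0.993 over all probe sets and medians within 0.064 of each other on the log2 scale. Of 8 hepatocyte markers 7 had a value, and the log2 of their summed signal lay between 16.14 and 16.20 in HP pools and between 16.07 and 16.18 in NP pools. For 5 markers of kidney tubules the log2 of the summed signal was 7.39 to 7.52 in HP pools and 7.31 to 7.45 in NP pools. Slc3a1 and Slc7a9 are also made in kidney tubules. Each of these 5 markers averaged below the median level of all genes (5.85). No detection call was used, so whether their signals are above background is not known. All values below are log2 signals from the robust multiarray analysis (RMA), a difference of 1 is 2-fold, and levels of different genes are not set against each other, since each is read by its own probes.

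In HP livers Slc7a2 was about 2-fold higher than in NP livers, and it was the single gene of the 10 that passed the test (1 of 10, against 0.441% of all genes). Both heavy chains had positive differences, Slc3a1 of 0.58 and Slc3a2 of 0.23, that did not pass after adjustment over all genes. No light chain passed. For several of them the difference between HP and NP had opposite signs on HF and LF diets, and for Slc7a11 it rested on a single pool.

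**Figure D1:**
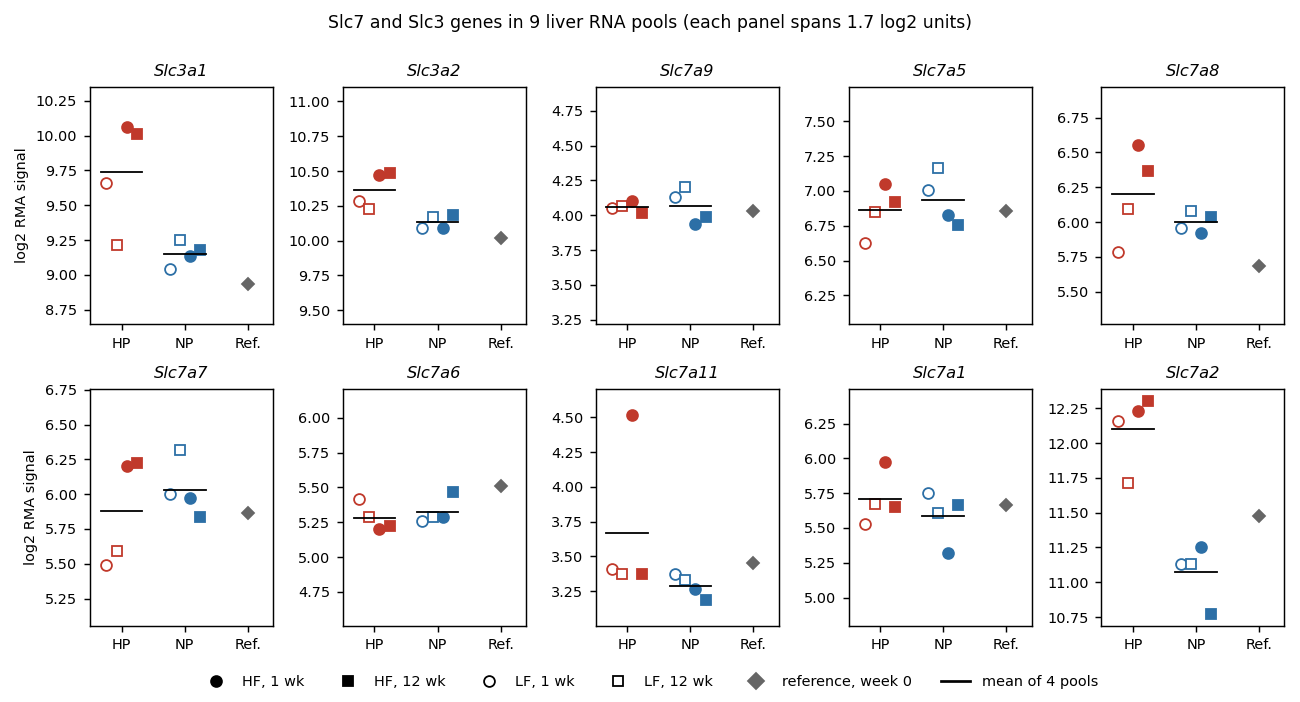
Level of each gene in each pool (vertical axis, log2 RMA signal), with HP pools in red left of NP pools in blue and the reference pool of week 0 in grey. Filled symbols are HF and open symbols LF diets, circles are 1 week and squares 12 weeks, and bars are means of 4 pools. Each panel spans the same number of log2 units. The HP pools of Slc7a2 lie between 11.72 and 12.30, all above the NP pools and the reference.

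Slc7a2 encodes CAT2, whose low-affinity form carries arginine, lysine and ornithine into hepatocytes when they are plentiful. Its signal was 12.23 and 12.30 in the HF-HP pools of 1 and 12 weeks and 12.16 and 11.72 in the LF-HP pools of 1 and 12 weeks. In NP livers it was 11.25 and 10.78 in the HF-NP pools and 11.13 and 11.13 in the LF-NP pools, and the reference pool had 11.48. All 4 HP pools thus lay above the reference and all 4 NP pools below it, by 0.24 to 0.82 and by 0.22 to 0.70. This arrangement was found for 0.246% of all genes. Slc7a2 averaged 12.10 ± 0.26 in HP pools and 11.07 ± 0.21 in NP pools (SD, n = 4 each). The HP minus NP difference was 1.03 (standard error 0.13, 95% interval 0.72 to 1.34, adjusted p = 0.0379 by limma), a fold of 2.04 with an interval of 1.65 to 2.53. In bulk liver, more RNA per cell and more cells that make it cannot be told apart.

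Slc7a2 was higher in HP than in NP pools in 4 of 4 comparisons matched for fat level and week. The difference was 0.98 and 1.53 on HF diets at 1 and 12 weeks, and 1.03 and 0.58 on LF diets at 1 and 12 weeks. The smallest of these belongs to the LF-HP pool of 12 weeks, which lay 0.44 below the next HP pool. In the order of the 9 pools that gap, the gaps of 0.24 and 0.22 on either side of the reference pool and the gap of 0.35 above the lowest pool, HF-NP of 12 weeks, exceeded the residual SD of 0.19. The other neighbours, which include the 3 highest HP pools, lay closer together than that. The difference between HP and NP kept its size with any pool left out (0.90 to 1.14), but the adjusted p did not. Leaving out LF-HP of 12 weeks it was 0.0488, leaving out any other pool 0.0730 to 0.154, and 0.0654 with the matched comparisons as blocks.

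**Figure D2:**
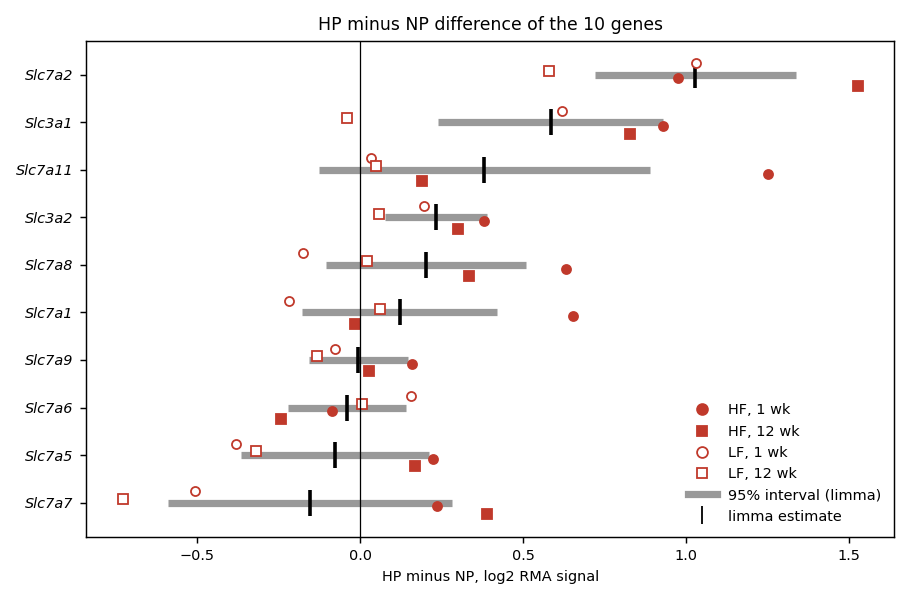
HP minus NP difference of the 10 genes (horizontal axis, log2 units). Symbols are the 4 matched comparisons (filled HF, open LF, circles 1 week, squares 12 weeks), the black tick is the limma estimate over 8 diet pools and the grey bar its 95% interval. For Slc7a2 all 4 comparisons lie above 0.5, and for Slc7a5 and Slc7a7 the HF comparisons lie right and the LF comparisons left of 0.

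Slc7a1 encodes CAT1, the high-affinity cationic transporter found in most cells other than hepatocytes. It had 5.97 and 5.65 in the HF-HP pools of 1 and 12 weeks and 5.53 and 5.67 in the LF-HP pools, against 5.32 and 5.67 in the HF-NP pools and 5.75 and 5.61 in the LF-NP pools. HP and NP pools overlapped, and the reference pool at 5.67 lay among them. The HP minus NP difference of 0.12 had an interval of -0.18 to 0.42 (adjusted p = 0.832 by limma), which leaves room for a rise or a fall. Its means of 5.71 in HP and 5.59 in NP pools lay below the median level of all genes (5.85). No detection call was used, so whether Slc7a1 is above background is not known. At 1 week on HF diets alone the HP pool was 0.65 above its NP pool, and the difference of HP from NP was -0.01 at 12 weeks on HF diets, and -0.22 and 0.06 at 1 and 12 weeks on LF diets.

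The heavy chains shared a pattern. Slc3a1, the partner of Slc7a9 in the transport of cystine and cationic amino acids, had 10.06 and 10.01 in the HF-HP pools of 1 and 12 weeks and 9.66 and 9.21 in the LF-HP pools. It had 9.13 and 9.18 in the HF-NP pools, 9.04 and 9.25 in the LF-NP pools and 8.93 in the reference pool. Of the HP pools 3 stood above all NP pools, while the LF-HP pool of 12 weeks fell among them, 0.04 below the LF-NP pool of the same week. HP pools averaged 9.74 ± 0.39 and NP pools 9.15 ± 0.09 (SD, n = 4 each). The difference was 0.58 (standard error 0.15, interval 0.24 to 0.93), with an unadjusted p of 0.00476 and an adjusted p of 0.217 by limma. In matched comparisons it was 0.93 and 0.83 on HF diets at 1 and 12 weeks and 0.62 and -0.04 on LF diets.

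Slc3a2, the common heavy chain of Slc7a5, Slc7a6, Slc7a7, Slc7a8 and Slc7a11, had 10.47 and 10.48 in the HF-HP pools of 1 and 12 weeks and 10.28 and 10.23 in the LF-HP pools. It had 10.09 and 10.18 in the HF-NP pools, 10.09 and 10.17 in the LF-NP pools and 10.02 in the reference pool. The HP and NP pools of Slc3a2 did not overlap, as for Slc7a2, which makes 2 of 10 genes where 1.88% of all genes had HP pools above NP pools without overlap. The lowest HP pool was only 0.04 above the highest NP pool, less than the residual SD of 0.09. The difference of 0.23 (standard error 0.07, interval 0.08 to 0.39) had an unadjusted p of 0.00899 and an adjusted p of 0.263 by limma. It was 0.38 and 0.30 on HF diets at 1 and 12 weeks and 0.19 and 0.06 on LF diets.

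For both heavy chains the HF-HP pools were the highest of the 9 pools and the reference pool the lowest. Among the 9968 other genes above the median level, Slc3a2 was the second most alike to Slc3a1 over the 9 pools (Pearson r = 0.971), after Abhd4 (0.976) and before Ccnb2 (0.971), a cyclin of mitosis. These 9 pools share diets, arrays and normalisation, so the coefficients are descriptions. The difference between HP and NP in Slc3a1 was larger on HF than on LF diets by 0.59 (standard error 0.22, unadjusted p = 0.0311, adjusted p = 0.706 by limma), and in Slc3a2 by 0.21 (adjusted p = 0.733). Neither passed.

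Slc7a11, the light chain of system xc-, exports glutamate in exchange for cystine, a source of cysteine for glutathione. Its signal was 4.52 in the HF-HP pool of 1 week and 3.38 in the HF-HP pool of 12 weeks, and 3.41 and 3.38 in the LF-HP pools of 1 and 12 weeks. It was 3.27 and 3.19 in the HF-NP pools, 3.38 and 3.33 in the LF-NP pools and 3.45 in the reference pool. A single pool was high, by 1.07 over the next of the other 8, which lay between 3.19 and 3.45. These are low signals for arrays whose values run from 1.41 to 14.46, 3 pools share exactly the same value, and no detection call was used here. Whether the 8 pools are above background is thus not known, and 1.07 is a difference in signal that may not give the fold in RNA. The HP minus NP difference of 0.38 (interval -0.13 to 0.89, adjusted p = 0.651 by limma) was 0.09 without that pool and 0.24 without the HF-NP pool of 1 week. Of all genes, 4 (0.0201%) were more than 2-fold higher in the HF-HP pool of 1 week than in each of the other 8 pools by signal. The others were Sprr1a, Gpx3 and Asns, of which Sprr1a and Gpx3 are named after their values were seen. The value has no replicate.

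Asns, asparagine synthetase, and Slc7a11 are both known targets of the transcription factor ATF4, which acts when amino acids run short or the endoplasmic reticulum is stressed. Asns had 8.78 and 7.21 in the HF-HP pools of 1 and 12 weeks and 5.99 and 5.85 in the LF-HP pools, against 5.71 and 5.21 in the HF-NP pools, 5.89 and 5.73 in the LF-NP pools and 5.71 in the reference pool. Unlike Slc7a11, it was high also in the HF-HP pool of 12 weeks. Its difference between HP and NP pools was 3.07 and 2.01 on HF diets and 0.10 and 0.13 on LF diets, and it did not pass the test (1.33, adjusted p = 0.405 by limma). The promoters of both genes are shown because ATF4, paired with C/EBP proteins, is known to bind a composite element whose letters are TGATGNAA. The 150 bases before each annotated start are given 5′ to 3′ from RefSeq (GRCm38.p6, minus strand), at chr3:50443614-50443763 for Slc7a11 and chr6:7693210-7693359 for Asns, with matches on either strand in capitals.
Slc7a11: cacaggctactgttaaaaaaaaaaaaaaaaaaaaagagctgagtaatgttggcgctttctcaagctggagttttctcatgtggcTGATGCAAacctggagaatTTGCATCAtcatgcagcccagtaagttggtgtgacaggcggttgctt
Asns: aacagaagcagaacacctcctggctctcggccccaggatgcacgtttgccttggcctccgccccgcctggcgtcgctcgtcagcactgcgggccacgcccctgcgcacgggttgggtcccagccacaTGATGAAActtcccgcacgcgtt

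The Slc7a11 promoter holds 2 matches that face each other, from -66 to -59 on the strand of the gene and from -47 to -40 on the opposite strand, and the Asns promoter holds 1 from -23 to -16 (the start counted as 0). Over windows of 300 bases around 32851 annotated mouse starts, 3.97% held a match on either strand and 23 windows (0.07%) held 2 or more. Of the 10 genes, 8 had promoters in the table and 15 windows in all. Slc7a7 was the other gene with matches, at -141 to -134 and -1 to 6 of its first start and at -243 to -236 of the second, where the last of these are the same bases as at the first start. Slc7a7 was not high in the HF-HP pool of 1 week alone. The letters TGACNNNGC of the antioxidant response element, which NRF2 binds, were found on either strand in windows of Slc7a1 and Slc7a6 and in 12.4% of all windows. The Asns window also held a match, from -172 to -164 on the opposite strand, ahead of the bases shown. A match is a description of the letters and does not show binding.

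Slc7a7, Slc7a5 and Slc7a8, light chains of Slc3a2, had higher signals in HP than in NP pools on HF diets, and Slc7a7 and Slc7a5 had lower signals in HP than in NP pools on LF diets. Slc7a7 encodes y+LAT1, which lets cationic amino acids leave the cell in exchange for neutral ones with sodium and is known from macrophages as well as from kidney and gut. It had 6.20 and 6.22 in the HF-HP pools of 1 and 12 weeks and 5.49 and 5.59 in the LF-HP pools. It had 5.97 and 5.84 in the HF-NP pools, 6.00 and 6.32 in the LF-NP pools and 5.86 in the reference pool. Both LF-HP pools lay below all others, and 4.94% of all genes and 1 of these 10 had both below the other 6 diet pools. The HP minus NP difference was 0.23 and 0.39 on HF diets and -0.51 and -0.73 on LF diets, with -0.15 over all diet pools (interval -0.59 to 0.28). The protein effect differed between HF and LF diets by 0.93 (standard error 0.16, unadjusted p = 0.000922, adjusted p = 0.541 by limma), which did not pass over all genes.

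Slc7a5 encodes LAT1, a carrier of leucine and other large neutral amino acids that proliferating cells use. Its signal was 7.05 and 6.92 in the HF-HP pools and 6.62 and 6.85 in the LF-HP pools of 1 and 12 weeks, against 6.83 and 6.75 in the HF-NP pools, 7.01 and 7.16 in the LF-NP pools and 6.86 in the reference pool. HP and NP pools overlapped, with a difference of -0.08 (interval -0.37 to 0.21, adjusted p = 0.900 by limma). By fat level the difference between HP and NP was 0.22 and 0.17 on HF diets and -0.38 and -0.32 on LF diets. The contrast of these effects was 0.55 (standard error 0.16, unadjusted p = 0.0109, adjusted p = 0.678).

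Slc7a8 encodes LAT2, which exchanges neutral amino acids of all sizes. It had 6.55 and 6.37 in the HF-HP pools of 1 and 12 weeks, 5.78 and 6.10 in the LF-HP pools, 5.92 and 6.03 in the HF-NP pools and 5.96 and 6.08 in the LF-NP pools, against 5.68 in the reference pool. Both HF-HP pools stood above the rest, and the LF-HP pools lay on either side of the NP pools. The difference between HP and NP was 0.63 and 0.33 on HF diets and -0.18 and 0.02 on LF diets. Its protein by fat contrast was 0.56 (standard error 0.17, unadjusted p = 0.0159, adjusted p = 0.687 by limma).

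**Figure D3:**
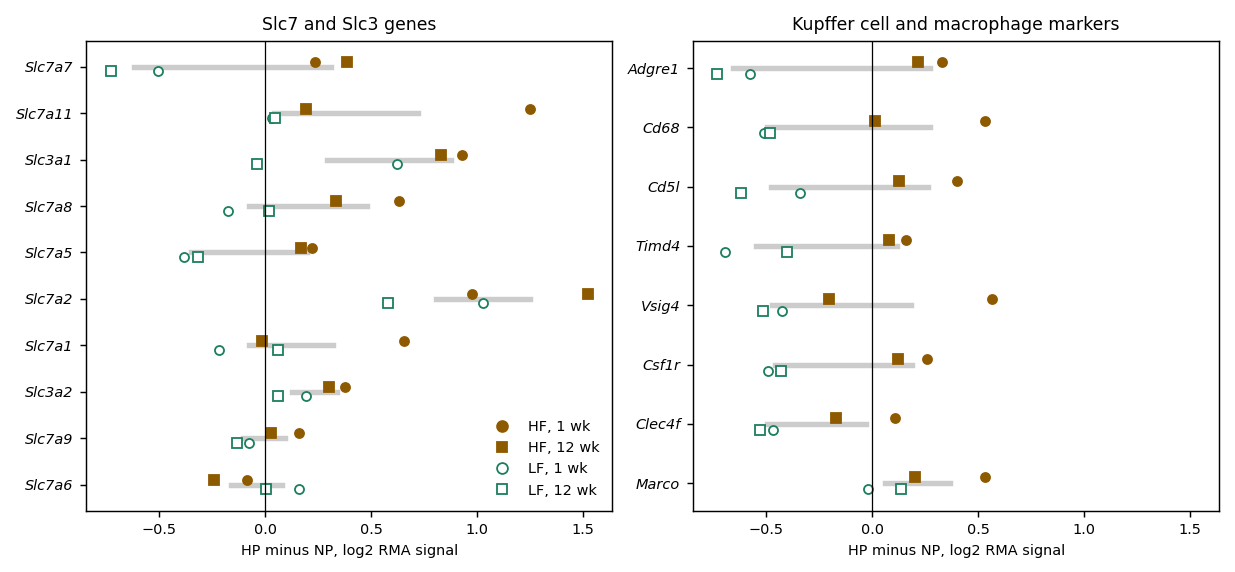
HP minus NP difference (horizontal axis, log2 units) on HF diets (filled, brown) and LF diets (open, green), circles for 1 week and squares for 12 weeks, with a grey bar between the mean on HF and the mean on LF diets. The left panel holds the 10 genes and the right panel 8 markers of Kupffer cells and macrophages, each ordered by the size of the protein by fat contrast. For Slc7a7 the means are 0.31 on HF and -0.62 on LF diets.

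Markers of Kupffer cells, the macrophages of the liver, had median differences of the same sign as Slc7a7 and Slc7a5 on HF and on LF diets. All 8 markers looked for had a value (Clec4f, Adgre1, Cd5l, Vsig4, Marco, Timd4, Cd68 and Csf1r), and none was at 0, since RMA gives every probe set a signal. The log2 of their summed signal, to which the brightest markers add most, was 11.46 and 11.53 in the HF-HP pools of 1 and 12 weeks and 10.69 and 11.05 in the LF-HP pools. It was 11.10 and 11.56 in the HF-NP pools, 11.14 and 11.57 in the LF-NP pools and 10.99 in the reference pool. The median HP minus NP difference of the markers was 0.23 on HF and -0.49 on LF diets. On HF diets it was 0.37 at 1 week and 0.10 at 12 weeks. At 12 weeks on HF diets Clec4f (-0.17) and Vsig4 (-0.20) were lower in the HP pool, where Slc7a7 was 0.39 higher. HP above NP in both HF comparisons and below it in both LF comparisons was seen in 5 of 8 markers. The protein by fat contrast was positive for 8 of 8 markers with a median of 0.66, and 7 had an unadjusted p under 0.05, but 0 passed over all genes. Of 7 endothelial markers the contrast was positive for 7, with a median of 0.27 and 1 unadjusted p under 0.05. The part of these cells in the values of Slc7a7, Slc7a5 and Slc7a8 was not tested.

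Over the 10 genes, 9 had a larger HP minus NP difference on HF than on LF diets, as had 56.6% of all genes. The median contrast was 0.50 for the 10 genes and 0.03 for all genes. A positive contrast was not particular to these genes. It was found for 21 of 22 amino acid transporters outside the Slc7 family (median 0.16) and 6 of 7 stellate cell markers (median 0.15). Only 1 of 7 further Slc7 genes (median -0.09) and 2 of 7 hepatocyte markers (median -0.08) had it. At an unadjusted p under 0.05 the contrast was positive for 4 of 10 (Slc7a7, Slc7a5, Slc7a8 and Slc3a1), against 4.79% of all genes, and after adjustment limma called 0 of the 10 and 0 of all genes, 1400 of which (7.02%) had an unadjusted p under 0.05. Both HF-HP pools were above the other 6 diet pools for 4 of 10 genes (Slc3a1, Slc3a2, Slc7a8 and Slc7a2), as for 6.18% of all genes. Opposite signs were also counted: HP above NP in both HF comparisons and below it in both LF comparisons was seen in Slc7a5, Slc7a7 and Slc7a9 (3 of 10, against 6.6% of all genes), and the reverse in Slc7a6 (1 of 10, against 3.41%). For Slc7a9 these differences ran only from -0.13 to 0.16, at signals of 3.94 to 4.20 that may not be above background. At 1 week on HF diets, 5 of 10 genes were more than 1.5-fold higher in the HP pool than in the NP pool (Slc7a11, Slc7a2, Slc3a1, Slc7a1 and Slc7a8), against 1.2% of all genes. That comparison rests on 1 array a side and has no test, and signals of Slc7a11 and Slc7a1 may not be above background.

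Slc7a6 and Slc7a9 hardly varied, at low signals below the median level of all genes (5.85). No detection call was used, so whether either is above background is not known, and a flat signal may not mean flat RNA. Slc7a6 encodes y+LAT2, an exchanger of cationic for neutral amino acids like Slc7a7. Its signals ran from 5.20 to 5.42 in HP pools and from 5.26 to 5.47 in NP pools, with 5.51 in the reference pool and an HP minus NP difference of -0.04 (interval -0.22 to 0.14). Slc7a9 encodes the light chain b0,+AT of Slc3a1. It lay between 4.02 and 4.10 in HP pools and between 3.94 and 4.20 in NP pools, with a difference of -0.01 (interval -0.16 to 0.15). In the HF-HP pools of 1 and 12 weeks, the highest for its heavy chain Slc3a1, Slc7a9 had 4.10 and 4.02. In Slc7a9 both HF-NP pools were the lowest and both LF-NP pools the highest of the 9, within a range of 0.26.

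Between HP and NP pools 6 of the 10 genes had a positive and 4 a negative difference, and their median was 0.16 against 0.00 for all genes. At an unadjusted p under 0.05, 3 of 10 were higher in HP pools (Slc7a2, Slc3a1 and Slc3a2) where 4.59% of all genes were, and 0 were lower (10.3% of all genes in either direction). HP pools were above NP pools in 4 of 4 matched comparisons for 3 of 10 genes (Slc7a2, Slc3a2 and Slc7a11), against 6.01% of all genes. For Slc7a11 the LF differences were only 0.03 and 0.05, at signals that may not be above background. Between HF and LF diets limma called 0 of the 10 and 0 of all genes, with 664 genes (3.33%) and 0 of the 10 at an unadjusted p under 0.05. The largest HF minus LF differences were 0.30 for Slc3a1 (interval -0.04 to 0.65) and 0.24 for Slc7a8 (interval -0.07 to 0.55). Leaving out LF-HP of 12 weeks brought Slc3a1 to 0.13, and leaving out LF-HP or HF-HP of 1 week brought Slc7a8 to 0.11 and 0.10. Between 12 weeks and 1 week limma called 0 of the 10 and 1 of all genes (0.00502%), and 0 of the 10 but 1538 genes (7.71%) had an unadjusted p under 0.05. The differences of 12 weeks minus 1 week ran from -0.33 for Slc7a11 (interval -0.83 to 0.18) to 0.09 for Slc7a8. That of Slc7a11 was -0.04 with HF-HP of 1 week left out, and -0.21 with HF-HP of 12 weeks left out. The protein effect did not pass a test of difference between the weeks for any of the 10, and for 523 genes (2.62%) that contrast had an unadjusted p under 0.05, with 0 called.

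Against the reference pool of week 0, the 8 diet pools share 1 array, so its own error enters every difference. All 8 diet pools were above it for 3 of 10 genes (Slc3a1, Slc3a2 and Slc7a8), against 9.97% of all genes, and all 8 were below it for Slc7a6 (7.65% of all genes). The result for Slc7a6 rests on the 1 reference array, at 5.51 where the LF-NP pools of weeks 1 and 12 had 5.26 and 5.29. Diet pools of Slc3a1 exceeded the reference by 0.28 to 1.13 on HP and by 0.11 to 0.32 on NP diets, and those of Slc7a8 by 0.10 to 0.87 on HP and by 0.24 to 0.39 on NP diets. The LF-NP diet, which all mice ate during the run-in, had pools at all 3 times. In these pools 6 of 10 genes were lowest at week 0 and highest at week 12, against 17% of all genes. Slc7a7 had 5.86, 6.00 and 6.32 at weeks 0, 1 and 12, Slc7a8 had 5.68, 5.96 and 6.08, and Slc3a1 had 8.93, 9.04 and 9.25. The others were Slc7a5, Slc3a2 and Slc7a9, and Slc7a2 was highest at week 0 with 11.48, 11.13 and 11.13. Each of these times is 1 pool, and time cannot be told apart from age.

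**Figure D4:**
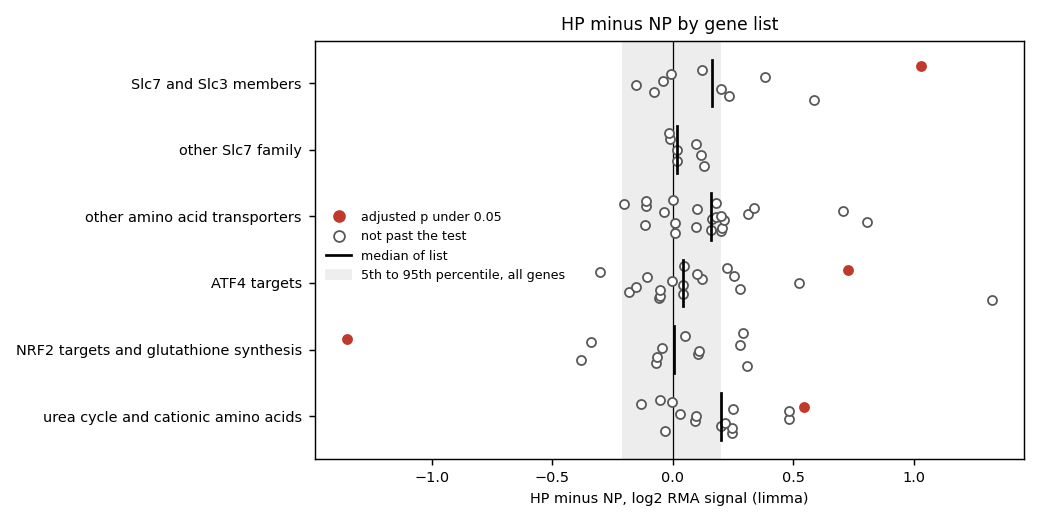
HP minus NP difference by limma (horizontal axis, log2 RMA signal) of each gene with a value in 6 gene lists. Red points are genes with an adjusted p under 0.05, open points are genes that did not pass, black bars are list medians and the grey band runs from the 5th to the 95th percentile of all genes. Slc7a2 is the red point of the first list at 1.03 and Osgin1 the red point at -1.35.

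Other genes of amino acid transport and of the pathways around these exchangers were counted from lists. Of all genes, 0.171% were higher and 0.271% lower in HP pools past the test. At an unadjusted p under 0.05 by limma, 4.59% of all genes were higher and 10.3% differed in either direction. Of 7 further Slc7 genes 0 passed in either direction and 0 had an unadjusted p under 0.05, with a median of 0.02. The first 3 of them, Slc7a3, Slc7a4 and Slc7a10, had differences of 0.13, 0.02 and 0.12. Of 22 amino acid transporters outside the Slc7 family 0 passed, 9 were higher and 1 lower at an unadjusted p under 0.05, and the median was 0.16. Slc38a1, Slc38a2 and Slc38a3, which carry glutamine and alanine with sodium, had differences of 0.01, 0.20 and 0.16. The largest in that list was Slc43a1 (LAT3), a carrier of leucine named after its values were seen, at 0.81 (adjusted p = 0.0515 by limma). Its HP pools lay between 8.08 and 8.50, all above the NP pools between 7.13 and 7.81.

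Genes of the urea cycle and of arginine, ornithine and lysine metabolism, with mitochondrial carriers among them, formed another list. Of 15 with a value among 16 listed, 1 passed and was higher, 7 were higher and 0 lower at an unadjusted p under 0.05, and the median was 0.20. Those 7 include Cps1, which uses ammonia, and Slc25a15, a carrier of ornithine, both named after their values were seen. The gene that passed was Aass, which starts the breakdown of lysine, at 0.55 (adjusted p = 0.0499). Arg1, the arginase of the urea cycle, had 0.25 and Asl, argininosuccinate lyase, also 0.25, neither past the test (adjusted p = 0.289 and 0.406), and Arg2, the mitochondrial arginase, had -0.03.

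Of 19 ATF4 targets with a value among 20 listed, which count Asns and not the 10 genes themselves, 1 was higher and 0 lower past the test, and 4 were higher and 1 lower at an unadjusted p under 0.05, with a median of 0.04. The gene that passed was Atf3, a transcription factor induced by stress, at 0.73 (adjusted p = 0.0182 by limma). Its HP pools lay between 5.97 and 6.52 and its NP pools between 5.20 and 5.82. The differences of Atf5 and Trib3, further targets of ATF4, were -0.06 and -0.05. In the HF-HP pool of 1 week, where Asns and Slc7a11 were high, the list had a median difference from HF-NP of 0.07. Its genes ran from -0.21 for Herpud1 to 3.07 for Asns, and next to Asns came Psat1 and Atf3 at 0.70 each. Herpud1 and Psat1 are named after their values were seen, and the comparison rests on 1 array a side.

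Slc7a11 is also a target of NRF2, the regulator of the response to oxidants. Of 12 NRF2 targets and genes of glutathione synthesis with a value among 14 listed, 0 were higher and 1 lower past the test, 2 were higher and 3 lower at an unadjusted p under 0.05, and the median was 0.00. Osgin1, which is induced by oxidant stress, fell by 1.35 (adjusted p = 0.0137 by limma), with 8.32 to 8.71 in HP pools and 9.60 to 10.06 in NP pools. Nqo1 had a difference of 0.31, Hmox1 of -0.07 and Gclc, the catalytic subunit of the enzyme that starts glutathione synthesis, of -0.38, none past the test. For this list the median difference of the HF-HP from the HF-NP pool of 1 week was 0.14.

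Genes with the pattern most like that of Slc7a2 over the 9 pools were Acmsd (r = 0.986), an enzyme of tryptophan breakdown, Slc16a5 (0.977), a monocarboxylate transporter, and Idh2 (0.975), the mitochondrial NADP-dependent isocitrate dehydrogenase. They were picked by Pearson r among the 9968 other genes above the median level. The most opposite were C4bp (-0.982), which restrains complement, Ces2e (-0.954), a carboxylesterase, and Adipor2 (-0.952), a receptor of adiponectin. Opposite to Slc3a1 were 2310033P09Rik (-0.943), Ces3a (-0.939) and C1s1 (-0.938), a protease of the complement cascade. For Slc7a11 the coefficients, with Cstb at 0.980, Col3a1 at 0.974 and Gucy1a1 at 0.964 and with 2810002D19Rik at -0.951, Ddb2 at -0.945 and Ufl1 at -0.937, were taken over 9969 genes and go with the HF-HP pool of 1 week, which is the highest of the 9 for the first 3 genes and the lowest for the last 3. Of these genes, Col3a1, 2810002D19Rik and Ddb2 have exactly the same value in several other pools.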

How the data were processed

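Total RNA of 9 liver pools was measured on Affymetrix Mouse Gene 1.0 ST arrays. The deposited values are log2 expression estimates that the authors made by robust multiarray analysis (RMA: background correction, quantile normalisation and summary per probe set), and nothing was renormalised here. The methods describe probe sets regrouped by Entrez Gene, whereas the deposited rows carry the array's own identifiers. Array annotation named 21789 of 35556 probe sets with 1 gene, and the brightest was kept per gene (19938 genes, no filter on the level). In 9.54% of these genes 5 or more of the 9 pools share 1 identical value. Tied pools count neither as above nor as below each other, which lowers the shares of all genes given for such orders. The value tables held no column outside the 9 samples. There are no counts, so precision is limited by the number of arrays.

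The protein effect was fitted with limma 3.58.1 (R 4.3.3) in the 8 diet pools, adjusting for fat and week (4 residual degrees of freedom, prior 3.52), with Benjamini-Hochberg adjustment over all genes and a threshold of 0.05. The reference pool stayed out of the fit. Contrasts of protein by fat and by week came from fits with 1 more term (3 residual degrees of freedom). The fit was run on simulated pools of the same design, with independent noise and known HP changes. These pools held no effect of fat or week and no protein by fat contrast. They cannot show how the p-values behave where such effects are present. The 10 genes and the lists were chosen with earlier results of these data known. The text names the 10 genes, up to 4 called genes of each list or its first 3 where fewer than 2 were called, the genes most and least alike in pattern to the 3 members with the largest SD, and others only as chosen after their values were seen. Alternatives were no covariates, a filter on the level, an intensity trend, array weights, centred arrays, the mean of probe sets, matched blocks, subsets, each pool left out and a threshold of 0.1. Python 3.11.15 with pandas 2.3.3, NumPy 2.4.6 and matplotlib 3.10.9 made tables and figures. Lipid, plasma and body weight measurements were not analysed here.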

Additional observations from a re-analysis of the deposited data

Results flagged for a closer look

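In Slc7a11 the HF-HP pool of 1 week lay far from the other 3 HP pools, with a gap to the nearest of 0.971 of the range of the group. In Slc7a6 the HF-NP pool of 12 weeks was the highest NP pool, with a gap of 0.869 of the range. Both exceed Dixon's critical value for 4 samples, and 20 groups of 4 pools were tested, of which chance alone is expected to mark about 1 in 20. The HP minus NP difference had opposite signs in all matched comparisons on HF and on LF diets for 4 genes, and the contrast of the effects was 0.93 for Slc7a7, 0.55 for Slc7a5, 0.20 for Slc7a9 and -0.24 for Slc7a6. None of these contrasts passed limma's test after adjustment over all genes.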

How the results depend on the processing

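The HP minus NP difference of Slc7a2 kept its direction under every alternative run. The number of genes called between HP and NP pools, 88 in all, was 219 with genes above the median level alone, 140 with array weights, 152 with centred arrays, 208 at a threshold of 0.1, 39 with matched comparisons as blocks, 0 in each subset (1 week, 12 weeks, LF or HF pools alone, which have fewer pools) and 1 to 36 without any 1 pool. Of the 10 genes, 0 were called with blocks and in each subset, and 0 to 1 without any 1 pool. For 12 weeks minus 1 week 0 to 1 genes were called without any 1 pool, and the protein by fat contrast was called for 2 genes with the filter, 1 with an intensity trend and 2 with centred arrays, none of them among the 10. Signs of HP minus NP turned for Slc7a5 (0.20), Slc7a7 (0.31) and Slc7a9 (0.094) in HF pools alone, for Slc7a8 (-0.078), Slc7a6 (0.081) and Slc7a1 (-0.078) in LF pools alone and for Slc7a6 (0.036) and Slc7a9 (0.041) at 1 week alone, and HF minus LF turned for Slc7a1 (-0.046) with array weights. Without any 1 pool, HP minus NP spanned 0 for Slc7a5 (-0.19 to 0.035), Slc7a7 (-0.32 to 0.024), Slc7a6 (-0.11 to 0.028), Slc7a9 (-0.055 to 0.034) and Slc7a1 (-0.014 to 0.21). HF minus LF did so for Slc7a5 (-0.13 to 0.076), Slc7a6 (-0.087 to 0.050), Slc7a11 (-0.075 to 0.37), Slc7a1 (-0.12 to 0.15) and Slc7a2 (-0.021 to 0.23). For 12 weeks minus 1 week it held for Slc3a1 (-0.20 to 0.11), Slc3a2 (-0.0064 to 0.084), Slc7a5 (-0.070 to 0.15), Slc7a8 (-0.037 to 0.23), Slc7a7 (-0.10 to 0.24), Slc7a6 (-0.042 to 0.10), Slc7a9 (-0.025 to 0.064) and Slc7a1 (-0.13 to 0.14). The cause was not tested for any of these. The labels give no replicate numbers that pair pools, and the blocks are diets of the same fat level and week. The residual SD of the 10 genes, 0.09 to 0.31, limits what 4 pools a side can resolve.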
